A study of Mus musculus with 12 samples.

Results

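The Zfp genes of the mouse are named for the zinc finger proteins they encode. They were taken here as every gene whose symbol is Zfp followed by a number, leaving out Zfp36, Zfp36l1 and Zfp36l2, which bind RNA through zinc fingers of another kind. Of 328 such genes in the probe table, 275 had, on 2 or more of the 12 arrays, a deposited intensity over that array's median, and the other 53 did not and have no result here. The same rule left 15663 of 19057 genes to be tested. The members were thus chosen by their signal on these arrays, and 148 of the 275 were over the median on all 12 arrays, 22 on exactly 2, and 39 on no array of at least 1 of the 3 treatments. Just inside the rule, the second-highest ratio to the median was 1.001 for Zfp791, 1.001 for Zfp273 and 1.002 for Zfp944, and just outside it the value of Zfp947 equalled the median, with 0.999 for Zfp59 and 0.998 for Zfp438. The rule goes by the symbol, so it also holds Zfp36l3, a relative of the 3 genes left out, which was above background on no array.

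Most of these proteins carry C2H2 zinc fingers, small folds held together by a zinc ion that stand in rows and read DNA. Many also carry a KRAB domain, which recruits TRIM28 and through it SETDB1 and HP1 proteins, so that the bound stretch of DNA, often a retroelement or an imprinted locus, is packed into silent chromatin. KRAB zinc finger genes arose largely by tandem duplication and sit in clusters along the genome. Other Zfp genes serve as ordinary transcription regulators or work in splicing, mitosis and ribosome assembly. Which of the 275 encode a KRAB domain was not determined here.

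The study compared regulatory T (Treg) cells made in culture in the presence of harmine, a small-molecule inhibitor of the kinase DYRK1A, with Treg cells made with a high dose of the cytokine TGF-β. TregHAR cells were GFP+ cells sorted by flow cytometry (FACS) on day 4 from cultures with harmine and little TGF-β, and Treghi cells were GFP+ cells sorted on day 4 from cultures with much TGF-β. Naive cells were the CD4+CD62L+ T cells that went into culture. All came from Foxp3GFP mice, a strain in which GFP reports the Treg transcription factor Foxp3. Each of the 3 kinds of cell was run on 4 arrays, 2 from naive cells purified by FACS and 2 from naive cells purified with magnetic beads (MACS). Cells cultured with little TGF-β and no harmine are not among the groups compared here, so harmine and the dose of TGF-β cannot be told apart between TregHAR and Treghi cells. By the paper's methods, Treg cultures stood on plates coated with antibodies to CD3 and CD28 and were fed IL-2. In every comparison with naive cells, activation, time in culture and Treg fate therefore cannot be told apart. Nothing in the sources says whether replicate arrays came from separate mice or cultures, so every p-value measures the spread between these arrays.

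The arrays were Illumina Mouse WG-6 v2 BeadChips hybridised with amplified RNA, and levels are given as normalized log2 intensity, always in the order FACS 1, FACS 2, MACS 1, MACS 2. A difference of 1 is a fold of 2, and levels of different probes are not set against each other. A probe was called above background when it passed a ceiling read from the distribution of each array, which lay between 6.22 and 6.23. Between 29.88 and 30.15% of probes passed it on each array. Replicate arrays correlated at 0.98 to 0.992 across all probes, and arrays of different treatment at 0.917 to 0.991. Genes of myeloid cells read higher on the naive arrays: the summed linear level of 8 myeloid genes was 464 to 499 on TregHAR arrays with 0 of 8 above background, 493 to 511 on Treghi arrays with 0 of 8, and 2530 to 27665 on naive arrays with 7 of 8 (all but Itgam). The 6 B cell genes tested summed to 1023 to 1382, 1108 to 1555 and 2373 to 15410 on TregHAR, Treghi and naive arrays, with 4, 3 and 6 of them above background, and the 2 erythroid genes to 117 to 143, 120 to 129 and 781 to 7991. The 6 Treg genes summed to 7344 to 9799 in TregHAR, 4689 to 5783 in Treghi and 1319 to 1527 in naive cells, where Il2ra was not above background, while the Foxp3 probe itself overlapped between all 3, at 6.71 to 7.40, 6.62 to 7.10 and 7.09 to 7.42. The Y-linked gene Eif2s3y was above background on 6 arrays (TregHAR MACS 1 and 2, Treghi FACS 2 and MACS 2, naive FACS 2 and MACS 2), so that arrays of 1 group differ in this. Xist, the RNA of the inactive X chromosome, read 8.98 to 10.49 on all Treg arrays, and on naive arrays 8.19 and 8.47 without and 5.76 and 5.84 with Eif2s3y signal, so the naive arrays are of 2 kinds in both genes and no Treg array is like the second kind. The part of these signals in the differences from naive cells below was not tested.

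Of the 275 Zfp genes, 192 (69.8%) were above background on at least 1 array, against 10146 of all genes tested (64.8%), and 112 (40.7%) on all 12, against 6110 (39%). The other 83 were above background on none, so their levels are bounds only.

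The first comparison asked which Zfp genes differ between the 2 kinds of Treg cell. In limma's moderated test with Benjamini-Hochberg adjustment over all 15663 genes, 0 of the 275 were called at an adjusted p under 0.05, where 0.172% of all genes were called higher and 0.294% lower in TregHAR cells. At an unadjusted p under 0.05 stood 19 Zfp genes, of 1687 genes in all. The differences were small: 254 of 275 lay within 0.2 of 0 on the log2 scale. Their median was -0.01 (0.00 over all genes), the median standard error was 0.08, and the extremes were -0.38 for Zfp28 and 0.63 for Zfp608. All genes differed as little, with a median absolute difference of 0.065 beside 0.061 in Zfp genes. Among genes with a mean level above background it was 0.118 over 7857 genes and 0.099 over 144 Zfp genes. Of these, 50.5% of genes and 38.9% of Zfp genes read higher in TregHAR cells, which was not tested. The 4 arrays of each kind did not overlap for 6 genes that were higher (2.18%, against 3.39% of all genes) and 7 that were lower in TregHAR cells (2.55%, against 3.17%).

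The smallest p-value belonged to Zfp933. It read 6.95, 6.81, 7.0 and 7.05 in TregHAR cells, against 6.78, 6.60, 6.71 and 6.63 in Treghi cells. All 4 TregHAR arrays lay above all 4 Treghi arrays, by a mean of 0.27 ± 0.07 (SE, n = 4 arrays each, limma adjusted p = 0.126). Further probes of Zfp933, above background on 7 and 8 arrays, differed by 0.15 and -0.03, so the probes of this gene disagree here. Zfp608, a nuclear protein known in mouse thymocytes for lowering the expression of the Rag genes, read 8.40, 8.08, 8.08 and 8.69 in TregHAR cells, against 7.31, 8.02, 7.65 and 7.72 in Treghi cells. These groups did not overlap either, with a mean difference of 0.63 ± 0.17 (SE), a fold of 1.55, and an adjusted p of 0.167 in limma. Zfp518b read 6.87, 6.86, 6.87 and 6.90, against 6.54, 6.78, 6.50 and 6.59, again without overlap (0.28 ± 0.09 SE, limma adjusted p = 0.231). The 2 others with the smallest p among the higher ones, Zfp365 and Zfp513, differed by 0.23 and 0.26 and their arrays overlapped.

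Among those lower in TregHAR cells, Zfp874b read 6.63, 6.82, 6.74 and 6.51, against 6.94, 7.02, 7.03 and 7.02 in Treghi cells. The groups did not overlap, and the difference was -0.33 ± 0.09 (SE, limma adjusted p = 0.176). Zfp46 read 7.93, 8.45, 8.02 and 8.10 in TregHAR cells, against 8.50, 8.68, 8.35 and 8.28 in Treghi cells. Its difference of -0.33 ± 0.11 (SE) had an adjusted p of 0.263 in limma, with the array TregHAR FACS 2 inside the Treghi range. Without that array the difference was -0.46 and the adjusted p 0.0463, the only such change of call among the named Zfp genes in this comparison. Zfp275, Zfp369 and Zfp703 completed the 5, at -0.18, -0.31 and -0.18 with adjusted p between 0.270 and 0.290, none of them overlapping between the groups.

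Against naive cells, more Zfp genes were lower than higher in both kinds of Treg cell. In TregHAR cells 20 of 275 (7.27%) were called higher, where 13.8% of all genes were, and 41 (14.9%) were called lower, where 13.7% of all genes were. In Treghi cells 21 (7.64%, against 12.8% of all genes) were higher and 39 (14.2%, against 13.2%) lower. The share called lower was thus near that of all genes, and the share called higher was below it. The median difference was -0.03 in TregHAR and -0.02 in Treghi cells, beside -0.01 and 0.00 (-0.005) over all genes. Of the 39 members over the median on no array of at least 1 treatment, 0 were called in either comparison. Both comparisons use the same 4 naive arrays. In these bulk samples, fewer cells of a type and less RNA per cell cannot be told apart.

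**Figure D1:**
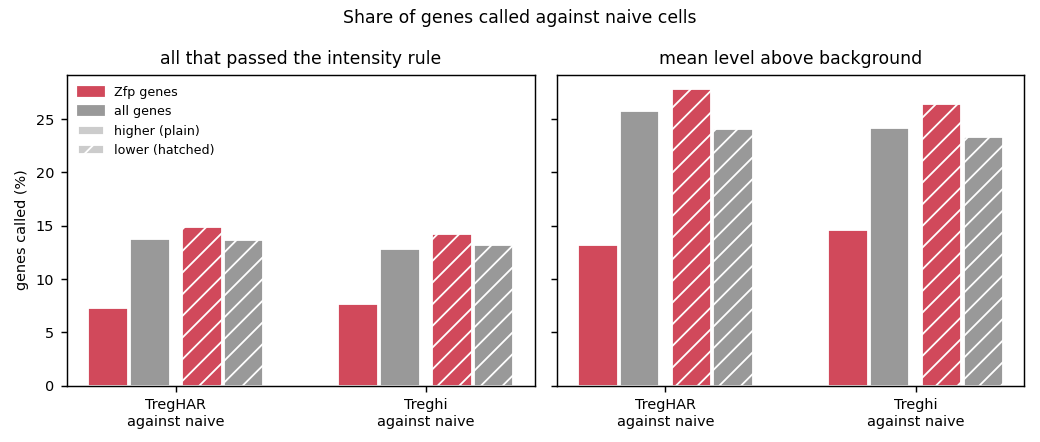
Share of genes called (%, vertical axis; limma adjusted p under 0.05) higher (plain bars) or lower (hatched bars) in TregHAR and in Treghi cells against naive cells, for the Zfp genes and for all genes. Left, genes that passed the intensity rule (275 and 15663); right, genes whose mean over 12 arrays was above background (144 and 7857), where the share called higher was 13.2 and 14.6% of Zfp genes.

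The shares were also read over probes whose mean over all 12 arrays was above background. Of these 144 Zfp genes, 19 (13.2%) were higher and 40 (27.8%) lower in TregHAR cells, beside 25.8 and 24.1% of 7857 genes. In Treghi cells 21 (14.6%) were higher and 38 (26.4%) lower, beside 24.2 and 23.3%. The split depends on the scaling: lower genes made up 67.2% of the Zfp genes called in TregHAR cells and 65% in Treghi cells (49.9 and 50.6% over all genes), and with arrays scaled to a common median in place of quantile normalization 55.4 and 53.3% (39.8 and 40.8% over all genes). Groups that did not overlap gave 20 higher and 39 lower Zfp genes in TregHAR cells (13.8 and 12.9% of all genes), and 21 and 38 in Treghi cells (13.7 and 12.9%).

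**Figure D2:**
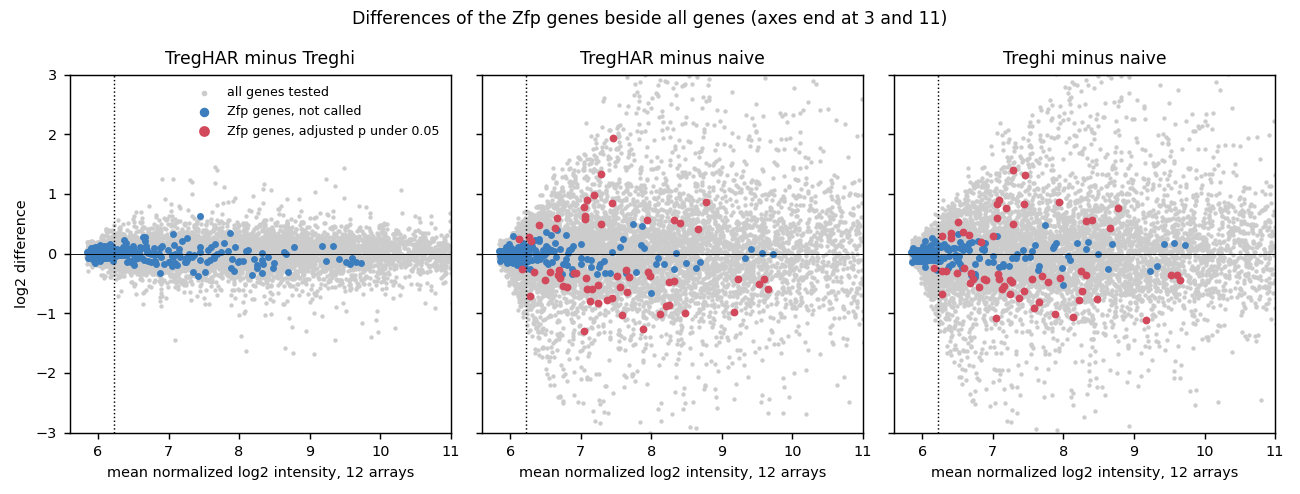
Log2 difference (vertical axis) against mean normalized log2 intensity over 12 arrays (horizontal axis) for TregHAR minus Treghi, TregHAR minus naive and Treghi minus naive. Grey points are all genes tested, coloured points the 275 Zfp genes, with those called shown in red, and the dotted line marks the background ceiling; axes end at 3 and 11, so some grey points lie outside, and no Zfp gene is red in the first panel.

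Of the genes called higher, 15 were so in both comparisons, which is 75% of the TregHAR and 71.4% of the Treghi list. Of those called lower, 34 were so in both, 82.9% of the TregHAR and 87.2% of the Treghi list. Both lists rest on the same naive arrays. The overlap over all genes was not counted, so these shares show nothing particular to the Zfp genes. All of the called genes had the same sign within FACS and within MACS. The differences of the called genes ran from 0.21 to 1.94 (higher, median 0.57) and from -1.29 to -0.25 (lower, median -0.52) in TregHAR cells, and from 0.19 to 1.40 (median 0.54) and -1.12 to -0.24 (median -0.45) in Treghi cells. Called higher only in TregHAR cells were Zfp280b, Zfp395, Zfp444, Zfp518b and Zfp629, and only in Treghi cells Zfp160, Zfp239, Zfp367, Zfp446, Zfp467 and Zfp703, but none of these 11 differed between the 2 kinds of Treg cell by the test above. These lists of 5 and 6 were named after their values were seen. The call of Zfp703 was lost without any 1 of 10 arrays, all but TregHAR MACS 1 and MACS 2 (limma adjusted p 0.0526 to 0.138).

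Zfp608 had the largest increase in TregHAR cells. Beside the TregHAR and Treghi levels given above, it read 6.12, 6.27, 6.53 and 6.55 in naive cells, the first under the background ceiling. All Treg arrays lay above all naive arrays, and the difference was 1.94 ± 0.17 (SE) in TregHAR cells, a fold of 3.85 (limma adjusted p = 2e-05), and 1.31 in Treghi cells, a fold of 2.48 (adjusted p = 0.000298). Another probe of Zfp608, above background on 10 arrays, differed the same way by 1.01 and 0.63. Zfp608 lies on chromosome 18 and Zfp52, which came next, on chromosome 17.

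Zfp52 read 7.39, 7.74, 8.08 and 7.61 in TregHAR cells, 7.94, 7.74, 7.68 and 7.72 in Treghi cells, and 6.23, 6.33, 6.36 and 6.59 in naive cells. Both kinds of Treg cell were above every naive array, by 1.33 (fold 2.51, limma adjusted p = 2.39e-05) and 1.40 (fold 2.63, adjusted p = 1.94e-05). A second kept probe of Zfp52, above background on 6 arrays, differed by -0.17 and -0.05, so the probes of this gene disagree. For Zfp827, whose human counterpart recruits the NuRD remodelling complex to telomeres, the levels were 7.73, 7.27, 7.55 and 7.80 in TregHAR, 7.39, 7.26, 7.49 and 7.36 in Treghi, and 6.70, 6.59, 6.64 and 6.51 in naive cells. The difference was 0.98 in TregHAR (adjusted p = 8.03e-05) and 0.77 in Treghi cells (adjusted p = 0.000431), with no overlap with naive arrays.

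Zfp41 was among the most even of the increases. It read 7.47, 7.46, 7.18 and 7.46 in TregHAR cells, 7.38, 7.50, 7.34 and 7.36 in Treghi cells, and 6.56, 6.57, 6.36 and 6.49 in naive cells, a difference of 0.90 in each comparison (limma adjusted p = 1.17e-05 and 1.27e-05). A further probe above background on 12 arrays gave 0.54 and 0.67. Zfp219, known as a cofactor of Sox9 in cartilage cells, read 9.40, 8.86, 8.62 and 9.52 in TregHAR, 8.92, 9.11, 9.34 and 8.60 in Treghi and 8.18, 8.02, 8.34 and 8.39 in naive cells. It differed by 0.87 (adjusted p = 0.014) and 0.76 (adjusted p = 0.0286), and another probe, above background on 12 arrays, by 0.38 and 0.21. The call in TregHAR cells was lost without TregHAR FACS 1 or naive FACS 2 (adjusted p 0.0541 and 0.0525), and that in Treghi cells without any 1 of the 4 naive arrays, both Treghi FACS arrays or Treghi MACS 1 (0.0607 to 0.0971).

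The next increases were smaller. Zfp738 read 7.27, 7.09, 7.22 and 7.61 in TregHAR, 7.22, 7.49, 7.41 and 7.25 in Treghi, and 6.62, 6.44, 6.54 and 6.45 in naive cells, differences of 0.79 and 0.83 without overlap. Zfp101 differed by 0.58 and 0.60, also without overlap. Zfp280b differed by 0.63 in TregHAR cells (limma adjusted p = 0.00464) and by 0.30 in Treghi cells, which overlapped with naive cells (adjusted p = 0.14). Zfp933 read 6.43, 6.44, 6.24 and 6.35 in naive cells, below all of its Treg arrays, and differed by 0.59 and 0.32, though 2 further probes of it, above background on 7 and 8 arrays, differed by 0.14 and 0.05 in TregHAR cells and by 0.00 and 0.08 in Treghi cells.

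**Figure D3:**
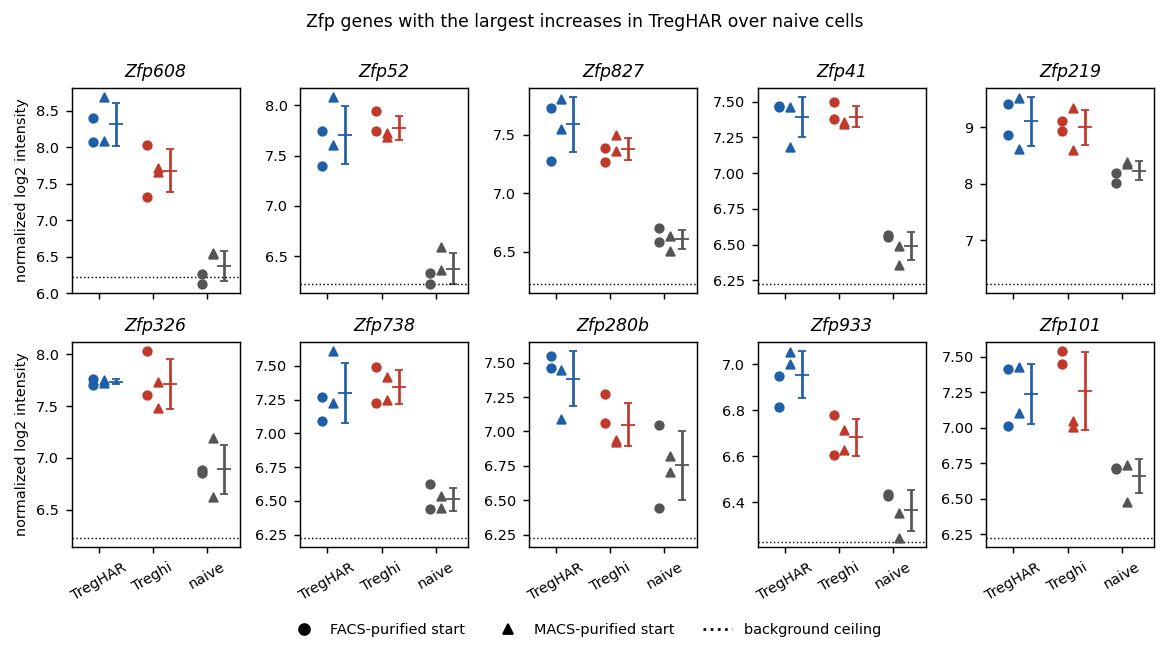
Normalized log2 intensity (vertical axis) of the 10 Zfp genes with the largest increases in TregHAR over naive cells, in TregHAR, Treghi and naive cells, 4 arrays each (circles, FACS-purified start; triangles, MACS-purified start). The short horizontal bars are means with SD, the dotted line is the background ceiling, each panel has its own axis that does not start at 0, and in all 10 panels the TregHAR arrays lie above the naive arrays.

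The largest decrease in TregHAR cells was that of Zfp710. It read 6.36, 6.56, 6.58 and 6.71 in TregHAR cells, 6.91, 6.70, 6.77 and 6.65 in Treghi cells, and 7.82, 7.53, 8.16 and 7.86 in naive cells. Every Treg array lay below every naive array, with differences of -1.29 (a fold of 2.45, limma adjusted p = 9.54e-06) and -1.09 (a fold of 2.12, adjusted p = 3.3e-05). A dimmer probe of Zfp710, above background on 4 arrays, differed by -0.36 and -0.31. Zfp592 followed, at 7.22, 7.52, 7.49 and 7.29 in TregHAR cells, 7.62, 7.64, 7.75 and 7.51 in Treghi cells, and 8.57, 8.35, 8.66 and 9.01 in naive cells. It differed by -1.26 (adjusted p = 1.91e-05) and -1.02 (adjusted p = 8.92e-05), again without overlap.

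Zfp597 and Zfp869 fell by nearly the same amount. Zfp597 read 6.88, 7.30, 7.41 and 7.24 in TregHAR, 7.43, 7.36, 7.18 and 7.29 in Treghi and 8.24, 8.30, 8.11 and 8.28 in naive cells, differences of -1.02 and -0.92. Zfp869 read 7.86, 7.80, 7.97 and 7.60 in TregHAR, 7.77, 7.77, 7.71 and 7.77 in Treghi and 8.84, 8.66, 8.68 and 9.12 in naive cells, differences of -1.02 and -1.07. Neither overlapped with naive cells, and the limma adjusted p-values were 3.01e-05 and 6.84e-05 for Zfp597 and 7.68e-05 and 5.96e-05 for Zfp869. The other kept probes of Zfp869 were dimmer, the brightest of them above background on 6 arrays with differences of -0.40 and -0.31.

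Zfp512b had the largest decrease in Treghi cells. Its levels were 8.95, 8.84, 8.77 and 8.99 in TregHAR cells, 8.78, 8.72, 8.84 and 8.67 in Treghi cells, and 9.82, 10.11, 9.96 and 9.59 in naive cells. All Treg arrays lay below the naive ones, by -0.98 in TregHAR and -1.12 in Treghi cells (limma adjusted p = 6.43e-05 and 3.02e-05). Zfp943 differed by -1.0 and -0.76, Zfp12 by -0.87 and -0.62, Zfp747 by -0.83 and -0.68, and Zfp472 by -0.77 and -0.75, all with adjusted p of at most 0.00146 and none overlapping with naive cells.

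Zfp180 differed by -0.88 and -0.78, and its naive arrays lay apart at 9.14, 8.38, 9.09 and 8.44, above all Treg arrays. The lower ones, naive FACS 2 and MACS 2, are the naive arrays with Eif2s3y signal. The part of that split in the size of the differences was not tested. Zfp653 differed by -0.64 (adjusted p = 0.0105) and -0.81 (adjusted p = 0.00302), and Zfp236 by -0.80 and -0.60, the second of which lost its call without naive FACS 2, Treghi FACS 2 or Treghi MACS 1 (limma adjusted p 0.0639 to 0.0772). Zfp658 was not above background on any Treg array and stood at 6.83, 6.65, 6.68 and 6.84 in naive cells. It was at least 1.44-fold lower in both TregHAR and Treghi cells, where the dim arrays were set at the background ceiling (limma adjusted p = 0.00011 and 0.000161).

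**Figure D4:**
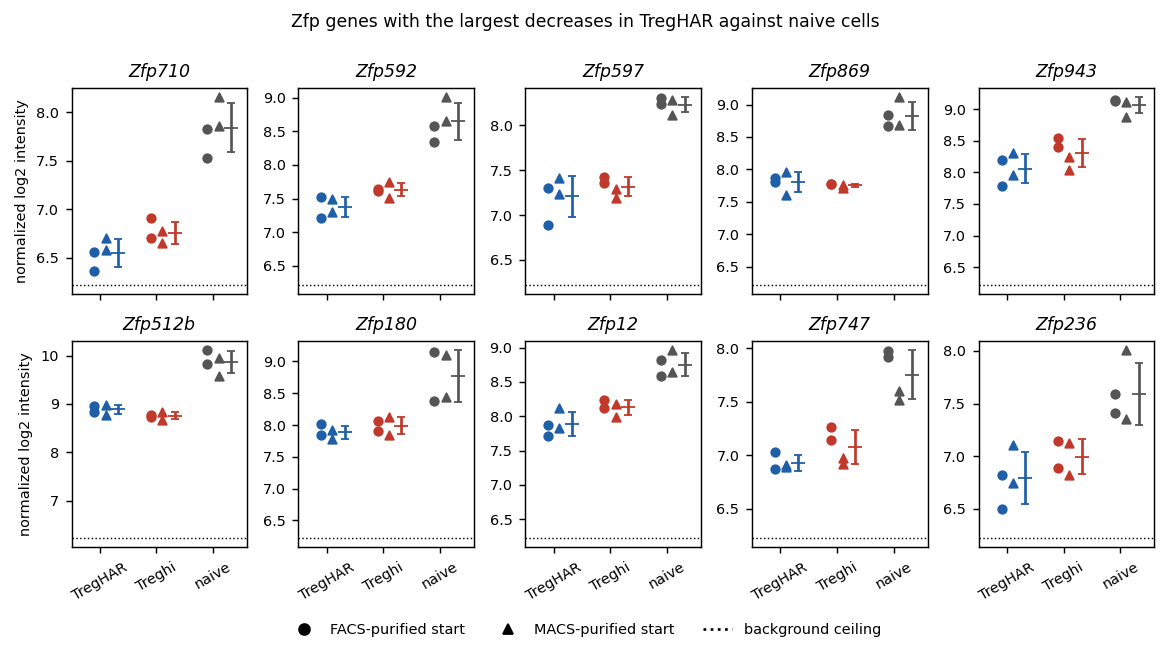
Normalized log2 intensity (vertical axis) of the 10 Zfp genes with the largest decreases in TregHAR against naive cells, in TregHAR, Treghi and naive cells, 4 arrays each (circles, FACS-purified start; triangles, MACS-purified start). The short horizontal bars are means with SD, the dotted line is the background ceiling, each panel has its own axis that does not start at 0, and in all 10 panels both kinds of Treg array lie below the naive arrays.

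Zfp genes with known work in translation, or in mitosis, splicing and genome maintenance, were read as 2 lists. Of 4 that serve ribosomes and translation, 0 were higher and 1 (25%) was lower in both kinds of Treg cell than in naive cells. It was Zfp593, a factor for assembly of the large ribosomal subunit. Of all genes 13.8% were higher and 13.7% lower in TregHAR cells, and 12.8 and 13.2% in Treghi cells. Zfp593 read 6.04, 5.93, 6.19 and 6.16 in TregHAR cells, all under background, 6.14, 5.98, 5.99 and 6.26 in Treghi cells, and 6.48, 6.47, 6.13 and 6.25 in naive cells. The groups overlapped, the level was at least 1.08-fold lower in TregHAR cells (limma adjusted p = 0.0311), and the difference was -0.24 in Treghi cells (adjusted p = 0.0433). The TregHAR call was lost without TregHAR FACS 2, MACS 1 or MACS 2, either naive FACS array or naive MACS 2 (adjusted p 0.0626 to 0.0999), and the Treghi call without any array but Treghi FACS 1 and Treghi MACS 2 (0.0508 to 0.154). Zfp622, another assembly factor of the large subunit, differed by -0.10 and -0.07, and Zfp598, the ubiquitin ligase that marks collided ribosomes, by 0.22 and 0.12 (adjusted p = 0.0506 and 0.327). Zfp706 was above background on no array. The medians over the 4 were -0.13 and -0.10, beside -0.01 and 0.00 (-0.005) over all genes.

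Of 6 genes of mitosis, splicing and genome maintenance, Zfp207 and Zfp326 (33.3%) were higher in both kinds of Treg cell and 0 were lower. The shares of all genes were 13.8 and 13.7% in TregHAR cells, and 12.8 and 13.2% in Treghi cells. Zfp326 is a subunit of the DBIRD complex, which couples splicing to transcription. It read 7.76, 7.71, 7.76 and 7.73 in TregHAR, 7.61, 8.03, 7.48 and 7.74 in Treghi and 6.85, 6.88, 6.62 and 7.20 in naive cells. The Treg arrays were all above the naive ones, by 0.85 (limma adjusted p = 0.000899) and 0.83 (adjusted p = 0.00118). Of the 2 further probes above background on 12 arrays, the first differed by 0.78 and 0.87, and the second by -0.09 and 0.09.

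Zfp207 (BuGZ), which loads the checkpoint protein Bub3 onto kinetochores, read 8.56, 8.80, 8.61 and 8.24 in TregHAR, 8.72, 8.46, 8.73 and 8.55 in Treghi and 8.27, 7.90, 8.30 and 7.73 in naive cells. Its lower naive arrays, FACS 2 and MACS 2, are those with Eif2s3y signal. TregHAR and naive arrays overlapped, Treghi and naive arrays did not, and the differences were 0.50 (limma adjusted p = 0.0318) and 0.57 (adjusted p = 0.0196). The TregHAR call was lost without TregHAR FACS 2, TregHAR MACS 1, naive FACS 2 or naive MACS 2 (adjusted p 0.0964 to 0.121). The Treghi call was lost without naive FACS 2, naive MACS 2, Treghi FACS 1 or Treghi MACS 1 (0.0576 to 0.0809), and another probe above background on 12 arrays differed by 0.12 and 0.08. The other 4 genes, Zfp830, Zfp335, Zfp451 and Zfp638, differed by -0.18 to 0.05, and Zfp830 was above background on no array.

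Of the best-known KRAB repressors of retroelements and imprinted loci, Zfp445, Zfp809 and Zfp568 were tested, and 0 of 3 were called in either comparison. Of all genes 13.8% were called higher and 13.7% lower in TregHAR cells, and 12.8 and 13.2% in Treghi cells. Zfp809, which silences murine leukemia virus, read 6.75, 6.71, 6.33 and 6.56 in TregHAR, 6.52, 6.83, 6.46 and 6.45 in Treghi and 7.13, 7.03, 7.20 and 6.31 in naive cells. The naive array MACS 2 lay apart from the other 3, and the differences were -0.33 ± 0.17 (SE) and -0.35 (limma adjusted p = 0.197 and 0.171). Zfp445, a guardian of imprints, differed by 0.02 and 0.05, and Zfp568, the repressor of a placental Igf2 promoter, was above background on no array.

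Among 14 transcription regulators and lymphocyte genes, Zfp318, Zfp608 and Zfp395 were higher (21.4%) and Zfp281 and Zfp35 lower (14.3%) in TregHAR cells. In Treghi cells Zfp318 and Zfp608 were higher (14.3%) and Zfp35 lower (7.14%). The shares of all genes were 13.8 and 13.7% in TregHAR cells, and 12.8 and 13.2% in Treghi cells. Zfp318, required in mature B cells to make IgD, read 7.84, 8.05, 8.19 and 8.01 in TregHAR, 8.70, 8.16, 8.11 and 8.31 in Treghi and 7.46, 7.22, 7.78 and 7.38 in naive cells. Both kinds of Treg cell were above all naive arrays, by 0.56 (limma adjusted p = 0.0122) and 0.86 (adjusted p = 0.00112), and the first call was lost without naive FACS 2 (adjusted p 0.0533). Over the arrays without Eif2s3y signal the differences were 0.32 and 0.78, and neither was called (limma adjusted p = 0.403 and 0.0512). No TregHAR MACS array is among these, so TregHAR arrays of FACS alone stood there against naive arrays of both purifications. Zfp35 was lower by 0.37 in TregHAR and 0.50 in Treghi cells, with all arrays below the naive ones.

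Zfp281, a partner of the NuRD complex in embryonic stem cells, differed by -0.38 (limma adjusted p = 0.0326) and -0.25 (adjusted p = 0.165). That call was lost without TregHAR FACS 1, MACS 1 or MACS 2, naive FACS 2 or naive MACS 2 (adjusted p 0.0545 to 0.124). Another probe of Zfp281, above background on 12 arrays, differed the same way by -0.57 and -0.45. Zfp395 differed by 0.48 (adjusted p = 0.0348) and 0.31 (adjusted p = 0.173), with naive MACS 2 inside the TregHAR range, and lost its call without TregHAR FACS 1 or MACS 2, naive FACS 1, FACS 2 or MACS 1, or either Treghi FACS array (0.0553 to 0.118). The other 9 were not called. Of them Zfp263 spread most, at 7.17, 7.27, 8.33 and 8.17 in TregHAR, 7.92, 7.91, 7.32 and 8.29 in Treghi and 8.07, 8.80, 8.01 and 8.67 in naive cells, with differences of -0.65 and -0.53 (adjusted p = 0.0655 and 0.14). Its higher naive arrays, FACS 2 and MACS 2, are those with Eif2s3y signal. Zfp410, the activator of the NuRD gene Chd4, differed by 0.06 and 0.13, and Zfp91, a ubiquitin ligase of the non-canonical NF-κB pathway, by 0.10 and 0.18. The medians over the 14 were 0.00 (-0.003) and -0.01.

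The proteins that KRAB zinc fingers work with were listed beside the Zfp genes, and 23 of 30 were tested. In TregHAR cells 8 were higher and 4 lower than in naive cells, in Treghi cells 6 and 4, and between the 2 kinds of Treg cell 0 differed by the test. As shares these were 34.8% higher and 17.4% lower in TregHAR cells (13.8 and 13.7% of all genes). In Treghi cells they were 26.1 and 17.4% (12.8 and 13.2%). All of the 23 but Pphln1, Trim24 and Atrx had a mean level above background. Of all genes with such a mean, 25.8% were higher and 24.1% lower in TregHAR cells, and 24.2 and 23.3% in Treghi cells. Beside these, the list's share called higher was above by less, and its share called lower was below. The difference was not tested. Trim28, the corepressor itself, was higher by 0.62 (limma adjusted p = 0.00105) and 0.50 (adjusted p = 0.00431). The H3K9 methyltransferase Setdb1 was higher in TregHAR cells by 0.34 (limma adjusted p = 0.0311), and its difference in Treghi cells was 0.14 (adjusted p = 0.416). The HP1 genes Cbx3 and Cbx5 were higher by 1.18 and 2.17 in TregHAR cells and by 0.85 and 1.91 in Treghi cells. The maintenance methyltransferase Dnmt1 and its guide Uhrf1, genes of dividing cells, were higher by 1.59 and 3.38 in TregHAR and by 1.25 and 3.18 in Treghi cells. The SETDB1 partner Atf7ip was lower by 0.60 and 0.53, Chd3 by 0.97 and 1.07, and Daxx by 0.71 and 0.80, in TregHAR and Treghi cells. The medians over the list were 0.22 and 0.01, beside -0.01 and 0.00 (-0.005) over all genes.

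Other zinc finger families were counted the same way. Of 34 Zbtb genes, 2 (5.88%) were higher and 4 (11.8%) lower in TregHAR cells, and 4 (11.8%) and 5 (14.7%) in Treghi cells. Of 17 Zscan and Zkscan genes, 3 (17.6%) were higher and 3 (17.6%) lower in TregHAR cells. In Treghi cells 2 (11.8%) were higher and 2 (11.8%) lower. The shares of all genes were 13.8 and 13.7% in TregHAR cells, and 12.8 and 13.2% in Treghi cells. Of the 3 genes of the RNA-binding Zfp36 family, 0 were higher. In TregHAR cells 2 (Zfp36 and Zfp36l1, 66.7%) were lower and in Treghi cells 1 (Zfp36, 33.3%). Whether the Zfp genes differ from these families was not tested.

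Many Zfp genes are neighbours. All 275 were placed in the RefSeq annotation, 70 of them on chromosome 7 and 31 on chromosome 17. In the order of protein-coding genes 111 stood next to another of the 275, in 43 runs. The other 164 did not, though zinc finger genes outside the 275 may stand beside them. In TregHAR cells 5 genes of the runs were higher (4.5%) and 18 lower (16.2%), and 15 of the others were higher (9.15%) and 23 lower (14%), where 13.8 and 13.7% of all genes were. In Treghi cells 6 genes of the runs were higher (5.41%) and 17 lower (15.3%), and 15 of the others were higher (9.15%) and 22 lower (13.4%), where 12.8 and 13.2% of all genes were. The median difference was -0.04 in the runs and -0.02 outside them in TregHAR cells, and -0.05 and -0.01 in Treghi cells. The longest run held 7 genes of chromosome 6, Zfp786, Zfp398, Zfp282, Zfp212, Zfp956, Zfp777 and Zfp746. It was mixed: Zfp212, Zfp956 and Zfp746 were lower in both kinds of Treg cell, Zfp777 only in Treghi cells, and Zfp282 differed by 0.49 and 0.47 (limma adjusted p = 0.0635 and 0.0759). Zfp746 (PARIS), a repressor of PGC-1α, read 7.10, 7.26, 7.25 and 7.04 in TregHAR, 7.23, 7.35, 7.21 and 7.28 in Treghi and 8.04, 7.63, 8.08 and 7.85 in naive cells. Its Treg arrays all lay below the naive ones, by -0.74 and -0.63. Zfp212 differed by -0.60 and -0.45 and Zfp956 by -0.41 and -0.43, also without overlap, and the 3 were named because of their place in this run.

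The stretch of 250 bases before the start of each gene was read from RefSeq promoters (GRCm38.p6), which matched 227 of the 275, and 5 motifs were searched as letters on both strands. The motif bound by ZFP143 and THAP11, whose letters are the capitals in the sequences of Zfp933 and Zfp692 further on, stood in 8 of 227 (3.52%), beside 67 of 12550 genes tested (0.534%) and 77 of all 27025 promoters (0.285%). CCGGAAGT, the core read by ETS factors, stood in 19 (8.37%), beside 4.65 and 2.93%. The site of NRF1, whose letters are the capitals in the sequence of Zfp12 further on with any base at the fifth place, stood in 19 (8.37%), beside 6.55 and 3.86%. AAGATGGC, the core of YY1, was in 4 (1.76%, beside 1.71 and 1.59%) and the E-box CACGTG in 17 (7.49%, beside 7.51 and 6.05%). A match is a string of letters and says nothing of binding.

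**Figure D5:**
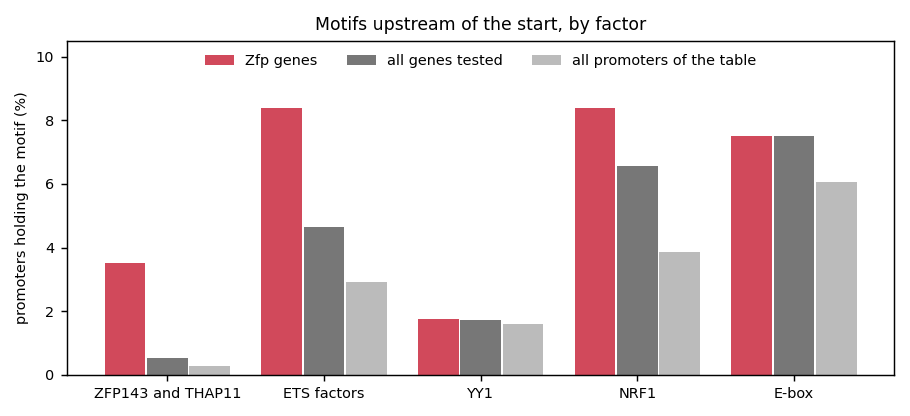
Share of promoters (%, vertical axis) that hold each motif within 250 bases before the start, by the factor it is named for (horizontal axis), for 227 Zfp genes, 12550 genes tested and 27025 promoters of the RefSeq table. The first motif stood in 3.52% of Zfp promoters and in 0.534 and 0.285% of the other sets, while the shares for YY1 and the E-box lay near each other in Zfp genes and genes tested.

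The 8 Zfp promoters with the ZFP143 and THAP11 motif are shown because the share of this motif differed most, as a ratio, from that in other promoters. Sequences read 5′ to 3′ along the strand of the gene, with up to 30 bases on each side, and capitals mark the motif, which lies on the strand of the gene in Zfp933 and Zfp692 and on the opposite strand, as its reverse complement, in the other 6.
Zfp933 at chr4:147848419-147848480 (minus strand): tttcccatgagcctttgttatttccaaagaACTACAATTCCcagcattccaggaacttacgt
Zfp180 at chr7:24081845-24081896 (plus strand): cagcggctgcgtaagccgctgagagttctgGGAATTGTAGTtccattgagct
Zfp692 at chr11:58306991-58307061 (plus strand): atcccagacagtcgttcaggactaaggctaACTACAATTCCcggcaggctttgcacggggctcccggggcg
Zfp1 at chr8:111643388-111643442 (plus strand): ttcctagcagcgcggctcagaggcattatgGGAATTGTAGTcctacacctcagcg
Zfp128 at chr7:12881133-12881177 (plus strand): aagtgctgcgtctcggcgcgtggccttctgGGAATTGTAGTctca
Zfp58 at chr13:67500523-67500582 (minus strand): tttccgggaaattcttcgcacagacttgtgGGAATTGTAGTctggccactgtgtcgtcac
Zfp93 at chr7:24270317-24270387 (plus strand): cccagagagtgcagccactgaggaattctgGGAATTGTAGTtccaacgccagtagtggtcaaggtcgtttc
Zfp454 at chr11:50887636-50887706 (minus strand): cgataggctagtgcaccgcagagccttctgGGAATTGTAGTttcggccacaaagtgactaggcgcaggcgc

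The motif ended between 4 (Zfp128) and 155 (Zfp454) bases before the annotated start. The 8 genes did not move together: Zfp933 was higher and Zfp180 lower in both kinds of Treg cell than in naive cells, as given above, and the other 6 were called in neither comparison. Zfp692, for one, read 0.47 and 0.13 above naive cells (limma adjusted p = 0.206 and 0.79).

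Of the 26 promoters of genes lower in both comparisons, 6 (23.1%) held the NRF1 motif, against 0 of 13 of genes higher in both and 12 of 172 (6.98%) of genes called in neither. Among all 12550 genes tested 6.55% held it, and the share among all genes called lower was not counted. CCGGAAGT stood in 15.4% of the higher, 3.85% of the lower and 9.3% of those in neither. The E-box stood in 15.4, 7.69 and 7.56%, the ZFP143 and THAP11 motif in 7.69, 3.85 and 3.49%, and AAGATGGC in 7.69, 0 and 1.74%. These groups were made from the calls and are small, and the shares were not tested. The 3 nearest their starts among the 6 with the NRF1 motif show it in its places.
Zfp12 at chr5:143235107-143235162 (plus strand): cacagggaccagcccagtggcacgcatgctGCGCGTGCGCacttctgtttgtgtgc
Zfp639 at chr3:32510539-32510591 (plus strand): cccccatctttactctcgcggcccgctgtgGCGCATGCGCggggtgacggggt
Zfp2 at chr11:50916183-50916252 (minus strand): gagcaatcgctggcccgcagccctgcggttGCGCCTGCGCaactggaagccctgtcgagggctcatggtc

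In these 3 the motif ended 16, 13 and 36 bases before the start. Zfp639 read 9.48, 9.30, 9.23 and 9.75 in TregHAR cells, 9.53, 9.54, 9.40 and 9.55 in Treghi cells, and 9.98, 9.79, 9.78 and 9.90 in naive cells. Its Treg arrays all lay below the naive ones, by -0.42 (limma adjusted p = 0.0171) and -0.35 (adjusted p = 0.041). Zfp2 differed by -0.31 and -0.29, near the background ceiling in Treg cells with 1 TregHAR and 2 Treghi arrays above it. The other 3 genes were Zfp653, Zfp658 and Zfp672.

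Few Zfp genes were called between the purifications of naive cells. Between naive cells purified by FACS and by MACS, 1 of 275 (0.364%) was higher in FACS-purified cells, where 0.0383% of all genes were, and 1 (0.364%) was lower, where 1.35% of all genes were. Zfp955a read 6.88 and 6.81 in FACS-purified cells, against 6.37 and 6.10 in MACS-purified cells, a difference of 0.61 (limma adjusted p = 0.0273). Zfp296 read 6.18 and 6.20 in FACS-purified cells, both under background, against 6.76 and 6.67 in MACS-purified cells, and was at least 1.41-fold lower in FACS-purified cells (adjusted p = 0.0293). The call of Zfp955a was lost without either TregHAR FACS array, either naive FACS array or naive MACS 2 (adjusted p 0.0502 to 0.21), and that of Zfp296 without any naive, TregHAR FACS or Treghi FACS array (0.0551 to 0.205). In the same comparison 5 of 8 myeloid and 4 of 6 B cell genes were lower in FACS-purified cells; their part in the 2 Zfp differences was not tested. No Zfp gene was called for a difference in its response between the purifications: for TregHAR against Treghi cells 0 of 275 were called, with 14 at an unadjusted p under 0.05 (0 and 775 of all genes), and for TregHAR and Treghi against naive cells 0 and 0, with 18 and 16 (of all genes, 0.543 and 0.555% were called with a higher and 0 and 0.00638% with a lower difference in FACS). Within FACS alone, 16 Zfp genes (5.82%) were higher and 37 (13.5%) lower in TregHAR than in naive cells, where 11.5 and 10.9% of all genes were, and 14 (5.09%) and 34 (12.4%) in Treghi cells, where 10.4 and 10.2% were. Within MACS alone, 9 (3.27%) were higher and 17 (6.18%) lower in TregHAR than in naive cells, beside 6.89 and 7.05% of all genes, and 5 (1.82%) and 15 (5.45%) in Treghi cells, beside 6.35 and 6.12%.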

How the data were processed

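RNA of 12 samples was amplified, hybridised to Illumina Mouse WG-6 v2 BeadChips and read with GenomeStudio. The authors deposited a table of probe intensity values with no background subtraction seen, whose mean was 257 on every array, which was used here, and a log2 table made with lumi (background correction, variance stabilization, robust spline normalization), used as an alternative. Array columns were matched to samples through the labels. Of 45281 probes, 34885 have 1 gene in the platform annotation. Intensities were corrected with normexp (offset 50), quantile normalized and put on the log2 scale in limma 3.58.1 (R 4.3.3). Of 25829 probes over the array median on at least 2 arrays, the one with the highest mean was kept for each gene. The number of arrays limits the precision.

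A model with 6 groups (treatment by purification, 2 arrays each) was fitted over all genes, with moderated two-sided tests, 6 residual degrees of freedom and Benjamini-Hochberg adjustment over 15663 genes. The script was tested on simulated data. An exact permutation test of 4 against 4 arrays cannot give a p below 0.0286. The background ceiling of an array stands 3 SDs, taken from the lower flank, above the peak of its log2 distribution. Where a gene was under it on all 4 arrays of a group, the ceiling replaced those values and the fold is given as "at least".

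The members and lists were chosen with earlier results of these data known. Named are, against naive cells, the 10 largest changes in each direction among genes called with the same sign in both purifications, the 5 smallest p-values in each direction between TregHAR and Treghi cells, up to 5 genes called between purifications, and the role and partner lists; genes outside these are said to be so or stand in a run or beside a promoter sequence. Of the role lists, Zfp57, Zfp932, Zfp708, Zfp143 and Zfp683 were not analysed here, and Zfp105 did not pass the intensity rule. Promoters and gene order came from RefSeq. Alternatives were other normalizations, filters, probe choices, models and subsets of arrays, and the choice of probe by mean intensity was added after seeing the data.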

Additional observations from a re-analysis of the deposited data

Results flagged for a closer look

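In 10 of 174 groups of 4 arrays, over 58 named Zfp genes, 1 array lay apart from the other 3 by Dixon's criterion, which chance meets in about 1 in 20 groups. The naive array MACS 2 was the one in 3 of them: Zfp101 read 6.48 there and 6.71 to 6.74 on the other naive arrays, Zfp148 read 8.72 against 7.94 to 7.98, and Zfp943 read 8.87 against 9.11 to 9.15. Among TregHAR arrays, Zfp35 read 6.69 on FACS 2 against 6.56 to 6.58, Zfp41 read 7.18 on MACS 1 against 7.46 to 7.47, and Zfp830, above background on none of them, read 6.02 on FACS 1 against 5.83 to 5.84. Among Treghi arrays, Zfp335 read 6.92 on MACS 1 against 6.71 to 6.75, Zfp869 read 7.71 on MACS 1 against 7.77 on the others, Zfp874b read 6.94 on FACS 1 against 7.02 to 7.03, and Zfp91 read 8.15 on MACS 2 against 7.92 to 7.95.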

How the results depend on the processing

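Over every Zfp gene called in the comparisons with naive cells or between purifications, 3190 values under 26 other settings held 0 changes of sign. Over 176 values of named genes, 14 other settings gave 2447 values, of which 2348 kept their side of the threshold, 78 lost their call and 21 gained one. Against naive cells, scaling to a common median gave 25 Zfp genes higher and 31 lower in TregHAR cells, and 21 and 24 in Treghi cells. Using only arrays without Eif2s3y signal left 13 higher in TregHAR and 25 lower in Treghi cells. There 39 of 61 calls in TregHAR and 35 of 60 in Treghi cells were kept, from fewer arrays and with no TregHAR MACS array among them. Shares over all genes are not given for these settings, nor for the replicate block and the arrays left out in turn. A loss of calls particular to Zfp genes therefore cannot be told from a general loss. Within MACS alone 9 were higher and 17 lower in TregHAR, and 5 and 15 in Treghi cells, from fewer arrays. Between naive cells purified by FACS and by MACS, where 1 was higher and 1 lower, there were 2 and 0 in the deposited log2 table, 0 lower with a common median, 2 higher without background correction, and 0 and 0 with the mean of all kept probes. Between TregHAR and Treghi cells, the methods' t-test put 7 Zfp genes higher and 9 lower at their threshold without adjustment (5.82%, against 10.3% of all genes), and 0 after Benjamini-Hochberg adjustment (8 genes in all).

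Leaving out each array in turn gave 0 higher and 0 to 1 lower between TregHAR and Treghi cells, 14 to 22 higher and 32 to 43 lower in TregHAR against naive cells, 14 to 22 and 27 to 42 in Treghi against naive cells, and 0 to 6 higher (6 without naive MACS 1) and 0 to 1 lower in FACS against MACS. The replicate numbers were not taken to pair the samples (correlations of -0.622 to 0.423 over 15 pairs of groups, 6 over 0.1), although naive arrays of the same number were alike in Eif2s3y and Xist. With the replicate number as a block the counts were 0 and 0, 23 and 43, 20 and 40, and 1 and 1, with 0 for the interaction. With the ceiling at 2 SDs, 234 Zfp genes were above background in place of 192. The block by slide was not run, since no slide is given. Probes near background bound small differences.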
